A study of Gallus gallus with 24 samples.

Results

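The genes described are BG8, the unnamed models gene:ENSGALG00000049448 and gene:ENSGALG00000050131 that overlap it, and the lectin gene BLEC2. All 4 lie on chromosome 16, the chicken chromosome that carries the major histocompatibility complex (MHC), and they are 4 of the 15618 genes of the deposited table and 4 of its 107 chromosome 16 genes. They were chosen by their measured TPM, which differed between the 2 chicken lines of the study. Their line difference is therefore given as a description without a test. The 4 genes were tested for injection and for its interaction with line, and line tests are given for other genes only. Jejunum was sequenced from 24 chickens, 6 in each of 4 groups. HASN birds were of the HAS line and were not injected, HASI birds were of the HAS line and were injected with sheep red blood cells (SRBC), and LASN and LASI were the uninjected and injected birds of the LAS line. The lines had been selected in opposite directions for their antibody response to SRBC, HAS for a high and LAS for a low response. All groups carry the label of day 5 after injection, and no sex, age, pen or batch is given.

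BG genes encode butyrophilin-related proteins with an immunoglobulin V-like domain, found in many copies in the chicken MHC and first known as antigens of the nucleated chicken red blood cell. BG transcripts are also found in other tissues, including the gut epithelium and blood cells, and the copies differ in number and sequence between MHC haplotypes. BLEC2 encodes a C-type lectin-like protein of the same MHC. The RefSeq gene table lists B-NK as another name of BLEC2 and B-LEC as one of BLEC1, its neighbour, and both resemble proteins of the natural killer cell receptor complex of mammals.

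The values were TPM, a measure of transcript abundance scaled by gene length and library size, and so allow levels to be compared between genes. Read counts were not used here, so the depth behind each value is unknown and no counting interval is given. The tissue label was checked against 19 enterocyte markers, whose summed level ran from 34667 to 77373 TPM over the libraries, with APOA1 from 10759 to 35863 TPM and FABP1 from 3903 to 14369 TPM. The libraries differed in 2 ways that are set beside the results below. One is the span slope, the regression of log2(TPM + 1) on the log2 length of the genomic interval of each gene, which is lower where long genes have lower values. Its mean in uninjected birds was -0.12 ± 0.13 (SD, n = 6) for HASN and -0.05 ± 0.06 for LASN, and in injected birds -0.16 ± 0.05 for HASI and -0.18 ± 0.07 for LASI. The other is the mitochondrially encoded share of TPM, 17.5 ± 4.53% for HASN and 15.0 ± 3.32% for LASN against 27.8 ± 6.86% for HASI and 22.1 ± 4.05% for LASI. In bulk tissue, fewer cells of a type and less RNA per cell cannot be told apart.

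BG8 (ENSGALG00000049461, galGal6 chromosome 16, 2283023 to 2395890, plus strand) was the most abundant of the 4 genes in every group. Its lowest, median and highest levels were 59.3, 74.5 and 108 TPM in HASN and 62.0, 79.0 and 92.4 TPM in HASI. In the LAS line they were 424, 480.0 and 575 TPM in LASN and 415, 451 and 513 TPM in LASI. Every LAS library lay above every HAS library, with a wide gap between the highest HAS and the lowest LAS value, and within a line the injected and uninjected birds covered much the same range. Among all 15618 genes, with the highest level at rank 1, the median rank of BG8 was 1976.5 in HASN and 1581.5 in HASI against 262.5 in LASN and 257 in LASI. The ratio of the LAS to the HAS mean was 6.44 in uninjected and 5.96 in injected birds. On the log2(TPM + 1) scale the difference of HAS from LAS was -2.70 (SE 0.14) in uninjected and -2.57 (SE 0.14) in injected birds. The HAS and LAS lines are known to carry different MHC haplotypes, and the values refer to the single build galGal6. Whether reads of both lines were counted equally well at these variable genes was not tested, and this holds for every line difference given here on chromosome 16.

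ENSGALG00000049448 (chromosome 16, 2302998 to 2422327, plus strand) has no symbol in the table, and its span starts inside that of BG8 and ends beyond it. Its lowest, median and highest levels were 1.93, 5.23 and 12.8 TPM in HASN, 1.30, 3.11 and 6.92 TPM in HASI, 63.9, 87.1 and 94.8 TPM in LASN and 22.0, 36.7 and 78.2 TPM in LASI. All LAS libraries were above all HAS libraries. Within the LAS line the injected birds were lower and overlapped the uninjected ones through 1 bird, LASI replicate 6. Of the 4 genes this model had the greatest ratio of LAS to HAS means, 14.0 in uninjected and 11.9 in injected birds. The difference of HAS from LAS was -3.85 (SE 0.36) and -3.25 (SE 0.36) in log2(TPM + 1).

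ENSGALG00000050131 (chromosome 16, 2296187 to 2298233, plus strand) is a short model of 2047 bases that lies wholly inside the span of BG8 and ends before that of ENSGALG00000049448 begins. Its lowest, median and highest levels were 4.06, 9.42 and 21.3 TPM in HASN, 4.54, 7.33 and 11.1 TPM in HASI, 38.9, 64.7 and 68.9 TPM in LASN and 12.96, 23.8 and 55.5 TPM in LASI. Uninjected LAS birds were above uninjected HAS birds and injected LAS birds above injected HAS birds, without overlap, while the lowest injected LAS birds reached into the range of uninjected HAS birds. The ratio of LAS to HAS means was 5.36 in uninjected and 3.61 in injected birds. The difference of HAS from LAS was -2.49 (SE 0.34) and -1.64 (SE 0.34) in log2(TPM + 1).

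BLEC2 (ENSGALG00000000136, chromosome 16, 2558049 to 2560828, minus strand) was the least abundant. Its 6 values were 0, 1.19, 0.25, 1.12, 0.70 and 0.59 TPM in HASN and 0.40, 0.50, 0.12, 0.26, 0.65 and 0.47 TPM in HASI. They were 3.84, 1.75, 2.20, 3.20, 2.03 and 1.97 TPM in LASN and 2.08, 2.52, 1.53, 5.29, 2.12 and 1.87 TPM in LASI. The lines did not overlap in either treatment, 1 HASN bird was listed at 0, and LASI replicate 4 stood above the other birds. The ratio of LAS to HAS means was 3.89 in uninjected and 6.42 in injected birds, and the difference of HAS from LAS was -1.11 (SE 0.21) and -1.29 (SE 0.21) in log2(TPM + 1). At levels this low the fold depends on the amount added before taking logs, and with 0.1 in place of 1 TPM added the difference was -2.16 and -2.40. BLEC2 reached 0.5 TPM in 18 libraries, all 12 of the LAS line and 6 of the HAS line, and so passed the filter of 0.5 TPM in at least 6 libraries, whereas the other 3 genes reached 0.5 TPM in all 24. Its median rank was 12888.5 in HASN and 11292.5 in LASN, so it was among the less expressed genes of the table in both lines.

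**Figure D1:**
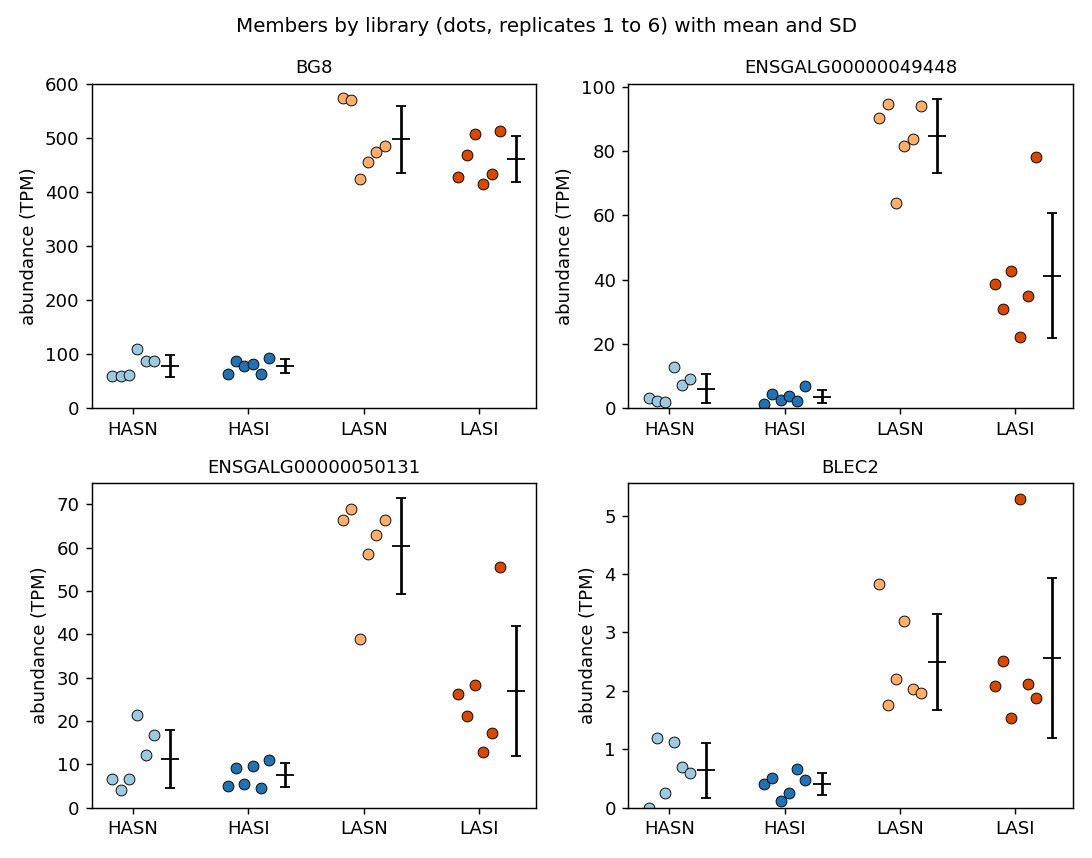
TPM of BG8, the 2 unnamed overlapping models and BLEC2 in each of the 24 libraries by group, on linear axes that start at 0 and differ between panels; each dot is 1 bird, and the mark with its bar beside the dots is the group mean with its SD (n = 6). In all 4 panels LASN lies above HASN and LASI above HASI without overlap, and the genes were chosen by this line difference. In the panels of the 2 unnamed models LASI lies below LASN with LASI replicate 6 as the highest injected bird.

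For the choice of these genes by line, the share of all 13279 tested genes called at an adjusted p under 0.05 gives the background. In HASN vs LASN 0.331% were higher and 0.843% lower in HAS, and in HASI vs LASI 0.158% were higher and 0.384% lower. No more is read from the line calls of the 4 genes, or from their lack of overlap between the lines, since those values chose them. The share of all tested genes without such overlap was not counted.

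The order of the groups by level was LASN, LASI, then the 2 HAS groups for BG8 and both unnamed models. For BG8 the neighbours LASN and LASI, and HASN and HASI, did not differ beyond their spread. For the unnamed models LASN and LASI differed in the test below and the HAS groups did not. For BLEC2 the mean was 2.57 ± 1.37 TPM (SD, n = 6) in LASI and 2.50 ± 0.827 in LASN, then 0.642 ± 0.469 in HASN and 0.400 ± 0.190 in HASI, and neither pair of neighbours within a line differed beyond its spread.

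BG8 and the 2 unnamed models together reached 94.6 ± 31.1 TPM in HASN and 88.2 ± 16.8 in HASI (SD, n = 6), against 642 ± 80.5 in LASN and 529 ± 71.8 in LASI. BG8 made up 83.2 ± 5.87% of that sum in HASN and 88.1 ± 3.09% in HASI, against 77.4 ± 1.90% in LASN and 87.6 ± 4.45% in LASI. Reads of overlapping models, or of copies alike in sequence, can be divided between models in ways the values do not show. The counting tool is not given in the sources used here, so the level of each single model is uncertain. No sequences were compared, so whether the unnamed models are BG copies is not known. For BG8 with all models that overlap it on its strand, 6 in all, the sum was 394 ± 65.1 TPM in HASN and 397 ± 39.4 in HASI, against 930 ± 105 in LASN and 923.9 ± 71.3 in LASI. BG8 was 19.4% of this wider sum in each HAS group, 53.4% in LASN and 50.04% in LASI. The sum over these 6 models was thus higher in LAS by a smaller factor than BG8 itself. It is not a sum over the whole locus. It leaves out ENSGALG00000046794 and ENSGALG00000039480, whose spans overlap that of ENSGALG00000049448 but not that of BG8. In HASN, HASI, LASN and LASI the means of ENSGALG00000046794 were 440.1, 383, 132 and 84.4 TPM. Those of ENSGALG00000039480 were 45.0, 30.1, 158 and 82.8 TPM.

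The models around BG8 did not all follow it. How reads were divided among overlapping models is unknown, so line tests of these are not independent of the difference that chose BG8. ENSGALG00000040101 (2272154 to 2410307, plus strand), whose span contains BG8, had means of 32.1 and 30.9 TPM in HASN and HASI and of 94.2 and 83.6 TPM in LASN and LASI, and was lower in HAS by -1.54 (SE 0.12, limma, adjusted p = 8.64e-09) in uninjected and by -1.40 (SE 0.12, adjusted p = 5.50e-08) in injected birds. ENSGALG00000046794 (2397112 to 2437757, plus strand), which begins just past the end of BG8, went the other way, with means of 440.1, 383, 132 and 84.4 TPM. It was higher in HAS by 1.65 (SE 0.23, limma, adjusted p = 0.000183) and 2.21 (SE 0.23, adjusted p = 3.15e-06) in log2(TPM + 1). ENSGALG00000013101 (2276258 to 2395893, plus strand), which covers nearly the same span as BG8, had means of 267, 278, 193 and 311 TPM and did not pass the test by line (limma, adjusted p = 0.173 and 1.0). In the same stretch of chromosome 16, models of one strand were therefore higher in LAS, higher in HAS, or not called. ENSGALG00000039480 (2404886 to 2405986, plus strand), a short model past the end of BG8, had means of 45.0, 30.1, 158 and 82.8 TPM and was lower in HAS by -1.99 (SE 0.33, limma, adjusted p = 0.00123) in uninjected birds, and its call in injected birds was lost in 11 of 21 alternatives.

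**Figure D2:**
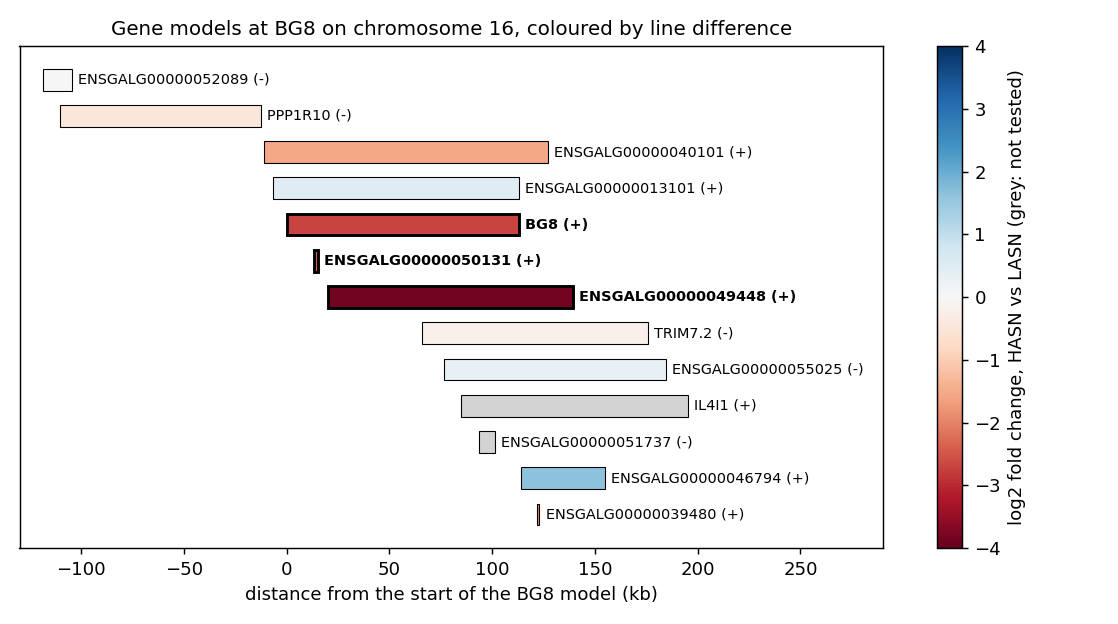
Gene models at BG8 on chromosome 16, each bar the span of 1 model by distance in kilobases from the start of BG8, with its strand in brackets and thick outlines for BG8 and the 2 unnamed models. Colour gives the log2 fold change of HASN vs LASN, red for lower in HAS, blue for higher in HAS and grey for models not tested: BG8 (-2.70), ENSGALG00000049448 (-3.85), ENSGALG00000050131 (-2.49) and ENSGALG00000040101 (-1.54) are red and ENSGALG00000046794 (1.65) is blue.

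The models nearest to BLEC2 that do not overlap it include BG1, BLEC1 and BLB1, with BG1 (2549855 to 2554710, minus strand) and BLEC1 (2562353 to 2565190, plus strand) on either side. BG1, another BG gene, was measured at a level like that of BG8 in LAS birds, 453 ± 31.95 TPM in HASN and 422 ± 42.9 in HASI, and 555 ± 59.6 in LASN and 492 ± 33.3 in LASI. Its line difference was -0.29 (limma, adjusted p = 0.160) in uninjected and -0.23 (adjusted p = 0.505) in injected birds and did not pass the test. BLEC1, the other lectin gene of the pair, had means of 19.5, 15.2, 21.2 and 20.7 TPM and no call in any comparison. BLB1 (2565094 to 2566926, minus strand), an MHC class II beta chain gene, was lower in HAS by -2.71 (SE 0.16, limma, adjusted p = 7.73e-11) in uninjected and -3.50 (SE 0.16, adjusted p = 4.85e-13) in injected birds. BLEC2 and BLB1 were thus low in HAS birds, and BG1 and BLEC1, which lie next to BLEC2, did not pass the test by line.

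Injection of the HAS line changed none of the 4 genes past the test. The background there was 0.241% of tested genes higher and 1.75% lower in HASI than in HASN. The change was 0.02 for BG8 (SE 0.14, limma, adjusted p = 0.922) and -0.53 for ENSGALG00000049448 (SE 0.36, adjusted p = 0.407). It was -0.41 for ENSGALG00000050131 (adjusted p = 0.459) and -0.19 for BLEC2 (adjusted p = 0.581).

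Injection of the LAS line was followed by lower levels of both unnamed models, and BG8 and BLEC2 did not pass the test. ENSGALG00000050131 fell by 1.26 in log2(TPM + 1) (SE 0.34, limma, adjusted p = 0.0163), with an LASI mean 0.446 times that of LASN. ENSGALG00000049448 fell by 1.12 (SE 0.36, limma, adjusted p = 0.0266), with an LASI mean 0.485 times that of LASN. BG8 differed by -0.11 (SE 0.14, adjusted p = 0.577) and BLEC2 by -0.01 (adjusted p = 0.975). In this comparison 28.9% of all tested genes were lower and 2.18% higher, so 2 lower genes of 4 is not a result about the set.

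The calls of the unnamed models in the LAS line were lost in the fit with the span slope as a covariate. That of ENSGALG00000049448 was also lost without some single birds. The call of ENSGALG00000049448 was lost without LASI replicate 2 (adjusted p = 0.0601), 4 (0.0717) or 5 (0.0570) and without LASN replicate 5 (0.0543) or 6 (0.0588), and over its 21 alternatives the adjusted p ran from 0.00458 to 0.457. That of ENSGALG00000050131 held without each library in turn. With the span slope as a covariate the changes were -0.27 (adjusted p = 0.457) for ENSGALG00000049448 and -0.47 (adjusted p = 0.116) for ENSGALG00000050131, and neither passed. The median change of all tested genes was -0.33 in LASI vs LASN. With the libraries rescaled by median ratios it was 0.03, and the changes were then -0.70 (adjusted p = 0.0441), -0.84 (adjusted p = 0.0153) and, for BG8, 0.33 (adjusted p = 0.0354), so the direction of BG8 after injection depends on the scaling. The scaling also moved BLEC2, to 0.29 (adjusted p = 0.328).

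**Figure D3:**
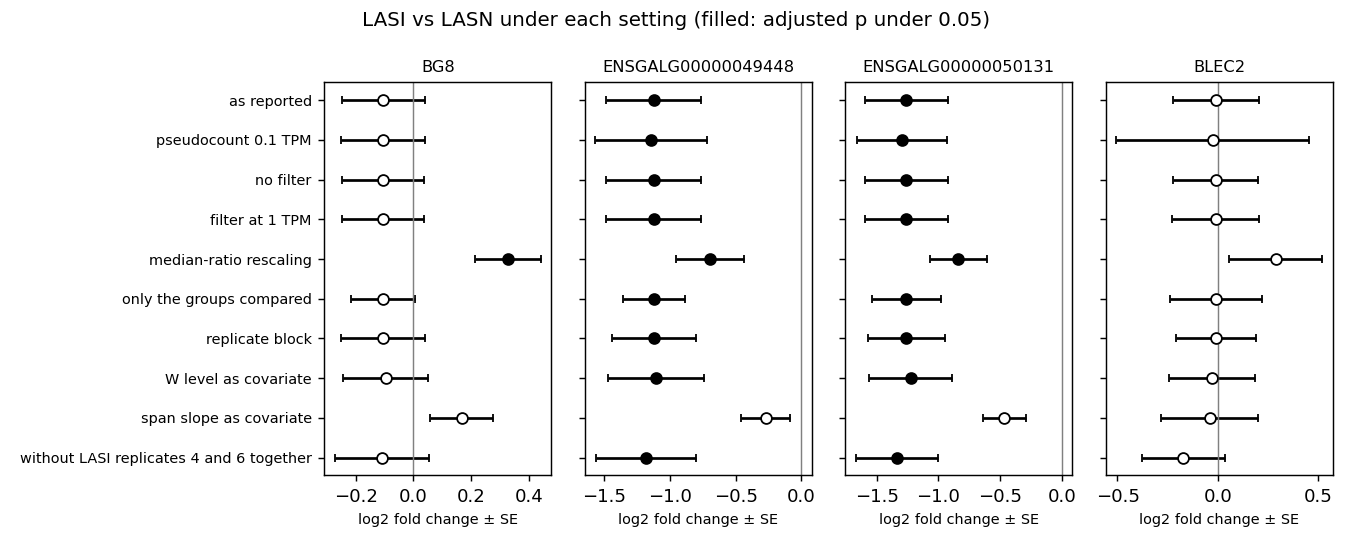
Log2 change of each of the 4 genes in LASI vs LASN under the settings tried, with bars of 1 standard error and an x axis of its own in each panel; filled markers passed the adjusted p threshold. The unnamed models stay below 0 in the settings shown and come nearest to 0 with the span slope as a covariate, at -0.27 and -0.47, and BG8 is above 0 with rescaling, at 0.33, and with the slope, at 0.17 and not past the threshold.

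A ratio between models of one library does not depend on the scaling of that library, apart from the 1 TPM added. The log2 ratio of ENSGALG00000049448 to BG8, each with 1 TPM added, was -2.54 ± 0.13 (SD, n = 6) in LASN and -3.56 ± 0.50 in LASI, a difference of -1.02 (exact two-sided permutation test, p = 0.00433, adjusted over 4 tests 0.00866). For ENSGALG00000050131 the ratio was -3.04 ± 0.20 in LASN and -4.19 ± 0.59 in LASI, a difference of -1.15 (exact permutation test, p = 0.00433, adjusted p = 0.00866). Both unnamed models thus had a lower level relative to BG8 in injected LAS birds. In the HAS line the differences were -0.55 (exact permutation test, p = 0.102, adjusted p = 0.102) and -0.44 (exact permutation test, p = 0.0931, adjusted p = 0.102), in the same direction and not past the threshold. Such a ratio shows unequal change of the models and does not show which of them changed. The ratios were not tested with the span slope as a covariate. In the fit of single genes with that covariate, the changes in LASI vs LASN were -0.27 for ENSGALG00000049448, -0.47 for ENSGALG00000050131 and 0.17 for BG8.

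**Figure D4:**
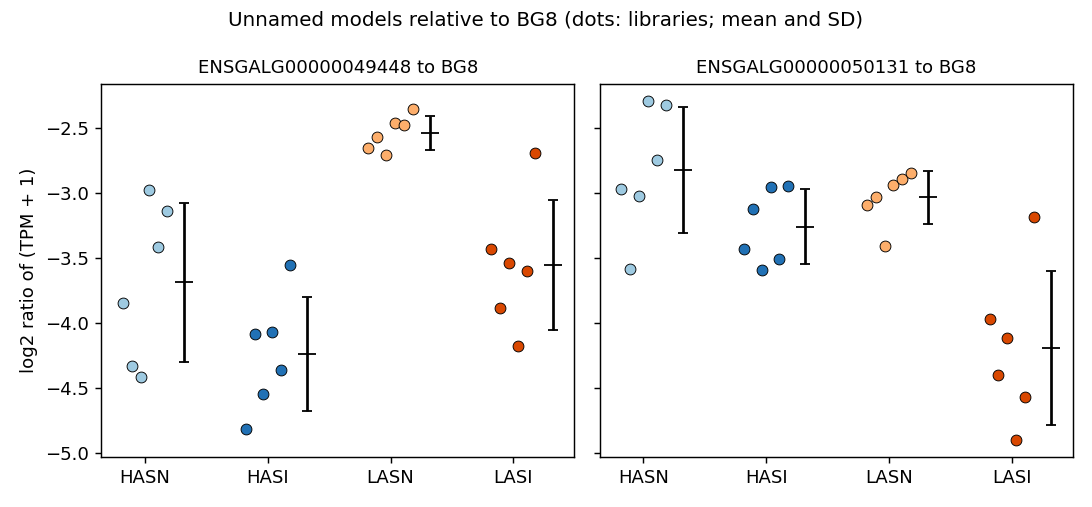
Log2 ratio of each unnamed model to BG8, each with 1 TPM added, in every library by group; each dot is 1 bird, and the mark with its bar is the group mean with its SD (n = 6). LASI lies below LASN in both panels, with means of -3.56 against -2.54 for ENSGALG00000049448 and -4.19 against -3.04 for ENSGALG00000050131, and the highest LASI bird in both panels is replicate 6.

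The injection effect was not shown to differ between the lines for any of the 4 genes. The interaction of line and injection was 0.13 for BG8 (SE 0.20, limma, adjusted p = 0.829), 0.60 for ENSGALG00000049448 (SE 0.51, adjusted p = 0.750), 0.85 for ENSGALG00000050131 (SE 0.47, adjusted p = 0.750) and -0.18 for BLEC2 (adjusted p = 0.841). Over all tested genes 0% were called for it by limma, with 606 at an unadjusted p under 0.05.

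Within groups, BG8 and the unnamed models moved together from bird to bird, and no such relation was seen for BLEC2. After the group means were removed, Pearson's r over the 24 libraries was 0.88 between BG8 and ENSGALG00000049448, 0.85 between BG8 and ENSGALG00000050131 and 0.95 between the unnamed models, with Spearman's rho of 0.89, 0.87 and 0.96 (permutation within groups, adjusted p = 2.8e-05 for each r and from 7e-05 to 0.000112 for rho, in a family of 14). Leaving out the pair of libraries most distant from the median gave r of 0.86, 0.82 and 0.95. BLEC2 had r of 0.11, -0.03 and -0.14 with the other 3 genes, and rho of 0.12, 0.0017 and -0.10 (permutation, adjusted p of at least 0.813). BLEC2 was at most 5.29 TPM in any library and its depth is unknown, so these values cannot show that it varied independently. The points share the library and its scaling, and the models overlap on the map. Genes of other chromosomes had r of 0.905 with BG8 (SFI1) and 0.970 with ENSGALG00000049448 (MIA3), so moving together is not particular to this locus.

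The same 3 genes also moved with the span slope. With the group means removed, r was 0.77 for BG8 (rho 0.76, permutation, adjusted p = 0.0031 and 0.00418), 0.90 for ENSGALG00000049448 (rho 0.90, adjusted p = 2.8e-05 and 7e-05) and 0.90 for ENSGALG00000050131 (rho 0.90, adjusted p = 2.8e-05 and 7e-05). Without the 2 farthest libraries r was 0.74, 0.88 and 0.87. HASN replicates 1 to 3 had slopes of -0.22, -0.28 and -0.24 and replicates 4 to 6 slopes of 0.0041, -0.02 and 0.01. The r was also taken within each group of 6, although within HASN it still spans both sets of birds. For ENSGALG00000049448 it was 0.97 in HASN and 0.95 in HASI, and 0.58 in LASN and 0.90 in LASI, and for ENSGALG00000050131 0.96, 0.97, 0.60 and 0.96. For BG8 it was 0.94, 0.97, -0.0014 and 0.62, so the relation was not seen within LASN. BLEC2 had an r of -0.06 with the slope (rho -0.02, permutation, adjusted p = 0.888 and 0.996). ENSGALG00000050131 itself spans only 2047 bases, while BG8 spans 112868 bases and ENSGALG00000049448 119330.

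The mitochondrial share moved the opposite way. With it r was -0.48 for BG8 (rho -0.45, permutation, adjusted p = 0.049 and 0.0733), -0.68 for ENSGALG00000049448 (rho -0.68, adjusted p = 0.00268 and 0.00418) and -0.60 for ENSGALG00000050131 (rho -0.60, adjusted p = 0.00667 and 0.0113). Without the 2 farthest libraries r was -0.47, -0.65 and -0.60, and for BLEC2 r was -0.05 over all libraries (rho -0.05, adjusted p = 0.888 and 0.957). The part of the mitochondrial share in the injection result was not tested. Nor was that of the span slope. Neither unnamed model passed in the fit with the slope as a covariate. Its mean was -0.05 ± 0.06 in LASN and -0.18 ± 0.07 in LASI, so slope and injection cannot be told apart there.

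**Figure D5:**
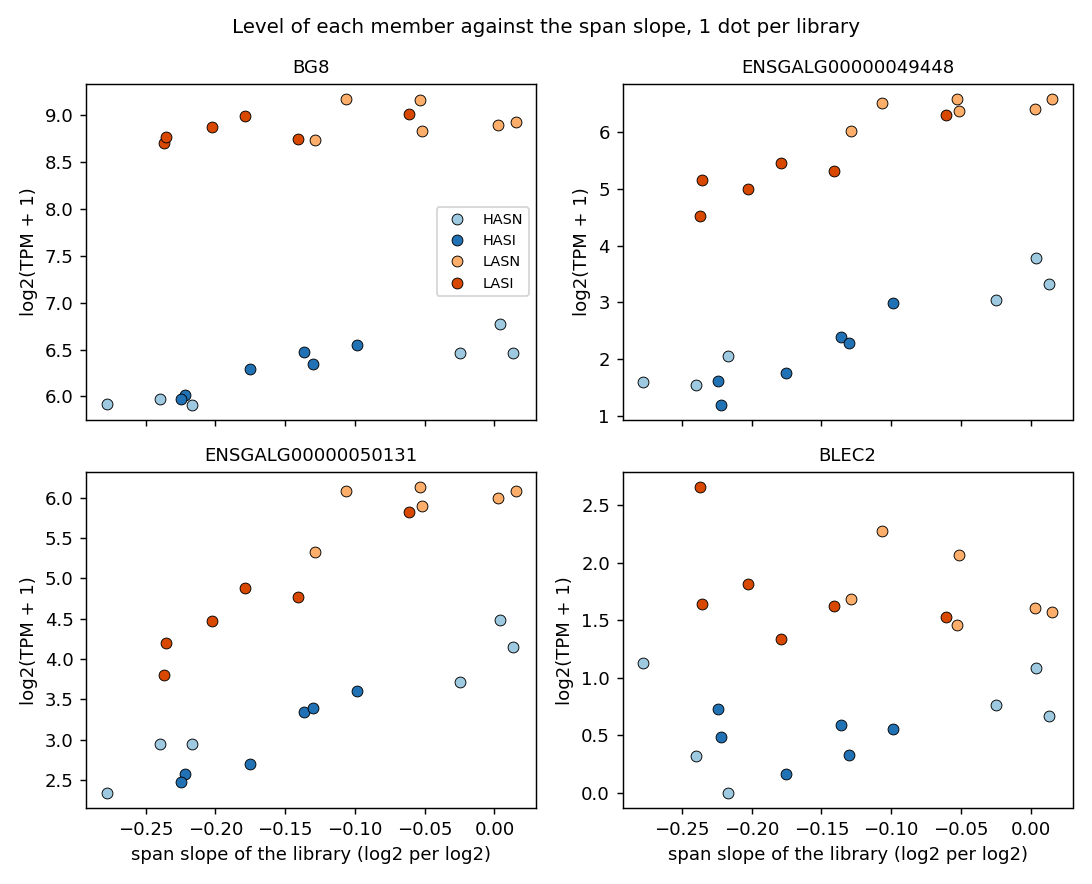
Level of each gene as log2(TPM + 1) against the span slope of the library, 1 dot per library and coloured by group. The unnamed models rise with the slope within the groups, and BLEC2 shows no such relation, with r of -0.06 after group means were removed. The genes were chosen by the difference between the lines.

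The genes whose levels were most like the members were listed over the 24 libraries, as a description. As measured, ENSGALG00000040101 was most like BG8 (r = 0.991), followed by ST3GAL4 (0.970) and KIRREL3 (0.961), a sialyltransferase gene and a cell adhesion gene that neighbour each other on chromosome 24. KIRREL3 was also most like ENSGALG00000049448 (0.962), ENSGALG00000039480 was most like ENSGALG00000050131 (0.975) and BLB1 was most like BLEC2 (0.875). These r values hold the difference between the lines. With group means removed the list changed to SFI1 (0.905), EFCAB5 (0.894) and SMYD3 (0.891) for BG8, MIA3 (0.970), USP48 (0.966) and RNF19A (0.965) for ENSGALG00000049448, and C6orf62 (0.972), UBE3B (0.967) and ENSGALG00000047988 (0.967) for ENSGALG00000050131. None of these 9 genes lies on chromosome 16. For BLEC2 it was HNRNPUL1 (0.836), TRMT12 (0.800) and MAPK8IP2 (0.789).

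Other named genes of the BG and lectin lists that could be tested did not pass in any comparison. Besides BG8, 5 of the 25 names of the butyrophilin family list were among the genes measured. Besides BLEC2, 3 of the 16 names of the lectin list were. Both lists also hold other names of members, such as BG12 and BG13 for BG8 and B-NK for BLEC2 in RefSeq. The unnamed models around BG8, some of them called by line, are on neither list. Of the butyrophilin family list BG1, BTN1A1 and CD276 were tested beside BG8, and HEP21 and VTCN1 were too low. Whether each listed name, HEP21 among them, belongs to that family was not checked. BTN1A1, a butyrophilin gene outside the MHC, had means of 9.22, 8.09, 10.3 and 7.85 TPM in HASN, HASI, LASN and LASI, and CD276, a related member of the B7 family, had means of 17.5, 15.8, 17.4 and 16.9 TPM. In this list 0 of 3 passed the limma test in any comparison. Over all tested genes 1.17% were called in HASN vs LASN and 0.542% in HASI vs LASI, so few calls by line are likely among so few genes. Of the lectin list BLEC1 and BLEC3 were tested, KLRD1 was too low, and 0 of 2 passed. BLEC3 had means of 5.09, 3.79, 3.48 and 3.03 TPM, and its line difference in uninjected birds was 0.46 (limma, adjusted p = 0.443).

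Of 24 tested genes of the MHC-B region and antigen presentation, 1 was higher and 2 were lower in HASN than in LASN, and 1 was higher and 3 were lower in HASI than in LASI. BF1, a class I heavy chain gene, was lower in HAS by -1.43 (SE 0.15, limma, adjusted p = 2.00e-06) in uninjected birds, and BF2, the other class I gene, was higher by 0.96 (SE 0.15, adjusted p = 0.000632). The median of the list was -0.12 in HASN vs LASN against -0.19 over all tested genes, and -0.12 against -0.06 in HASI vs LASI. After injection 2 genes of this list were lower in the HAS line, BLB1 (-0.69, limma, adjusted p = 0.0274) and TRIM7.2 (-0.91, adjusted p = 0.0123), and 3 were lower in the LAS line, among them TRIM7.2 (-0.97, adjusted p = 0.00537) and TRIM41 (-1.23, adjusted p = 0.0137), while 0 were higher. Over all tested genes 1.75% were lower in HASI vs HASN and 28.9% in LASI vs LASN, so the share of the list in the LAS line is below that of all genes. TRIM7.2 (2349021 to 2458853, minus strand) overlaps BG8 on the other strand and had means of 46.5, 25.1, 54.0 and 27.8 TPM, with no call by line. The BLB1 call was lost in 8 of 20 alternatives, the TRIM7.2 call in the HAS line with only the groups compared (adjusted p = 0.103), and the TRIM41 call with the span slope (adjusted p = 0.106). ENSGALG00000013101, on the strand of BG8, rose in the LAS line by 0.64 (SE 0.15, limma, adjusted p = 0.0125) and was called in 21 of 21 alternatives. ENSGALG00000046794 (-0.69, limma, adjusted p = 0.0315) and ENSGALG00000039480 (-0.96, adjusted p = 0.0332) were lower in LASI than in LASN, with calls lost in 9 and 11 of 21 alternatives, the span slope (adjusted p = 0.570 and 0.610) and rescaling (adjusted p = 0.1504 and 0.0535) among them. At the BG8 locus in the LAS line, the lower level of TRIM7.2 and the higher level of ENSGALG00000013101 were thus called in all 21 alternatives, and the lower levels of both unnamed models, ENSGALG00000046794 and ENSGALG00000039480 were not called with the span slope.

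Chicken red blood cells carry BG proteins, and the level of their markers was taken beside the BG levels. The summed level of 13 erythrocyte genes ran from 194 to 567 TPM in HASN and 211 to 437 in HASI, and from 246 to 1303 in LASN and 214 to 920.4 in LASI. These ranges overlap between the lines, and 0 of 8 tested erythrocyte genes passed the limma test in any comparison. Over all tested genes 1.17% were called in HASN vs LASN, 0.542% in HASI vs LASI, 2% in HASI vs HASN and 31.1% in LASI vs LASN. A count of 0 of 8 by line is near those shares and is not a result about these cells. Leaving out single libraries moved the erythrocyte calls in LASI vs LASN to between 0 and 3. The median difference of the 8 genes was 0.14 in HASN vs LASN. Over all libraries HBA1, a haemoglobin gene, ran from 18.1 to 484 TPM and ALAS2, the red cell enzyme of haem synthesis, from 70.0 to 343 TPM. The sum rested largely on ALAS2, HBA1 and HBBA, with medians of 148, 70.5 and 48.0 TPM. No other gene of the list had a median above the 1.85 TPM of TAL1, and that of SLC4A1 was 0.887 TPM. ALAS2 differed by -1.01 in HASN vs LASN (SE 0.27, limma, adjusted p = 0.0737) and by -0.24 in HASI vs LASI. In uninjected birds it passed with only the groups compared (adjusted p = 0.0164). In LASI vs LASN it differed by -0.68 (limma, adjusted p = 0.0585) and passed with the replicate block (adjusted p = 0.0375). None of the 13 was at 0 in all libraries. Thrombocyte genes summed to between 34.5 and 96.7 TPM, and 0 of 4 tested passed in any comparison. The part of either cell type in the BG levels was not tested.

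Markers of T and NK cells, set beside the lectin gene BLEC2, summed to 1606 to 4320 TPM in HASN and 1470 to 3863 in HASI, and to 1416 to 2069 in LASN and 1584 to 2467 in LASI, with 0 of 18 called by line. Their medians were 2608 TPM in HASN and 1550 in HASI, and 1764 in LASN and 2067 in LASI. HASI had the lowest BLEC2 mean and the lowest of these medians. HASN, with the next lowest BLEC2 mean, had the highest of them. The part of these cells in the BLEC2 levels was not tested. In LASI vs LASN, where BLEC2 was not called, 1 of the 18 was higher and 2 were lower, among them CD28 (0.90, limma, adjusted p = 0.0192) and LCK (-1.18, adjusted p = 0.0151), a costimulatory receptor and a kinase of T cell receptor signalling. The remaining lists had 0 calls by line. Over all tested genes 1.17% were called in HASN vs LASN and 0.542% in HASI vs LASI, so lists without a call are near that share. After injection of the HAS line 1 of 20 macrophage and dendritic cell genes was lower, CTSS (-0.65, limma, adjusted p = 0.0360), against 1.75% of all tested genes, and its call was lost in 10 of 20 alternatives, rescaling among them (adjusted p = 0.274). After injection of the LAS line 3 of 20 macrophage and dendritic cell genes were lower, among them FLT3 (-1.21, adjusted p = 0.0200), 1 of 14 B and plasma cell genes, PRDM1 (-1.70, adjusted p = 0.0133), and 3 of 19 enterocyte genes, among them CDH17 (-1.17, adjusted p = 0.0252). Each of these shares is below the 28.9% of all tested genes that were lower in that comparison. Leaving out single libraries moved the calls to 0 to 7 of the enterocyte genes, 1 to 7 of the T and NK cell genes, 1 to 5 of the B and plasma cell genes and 0 to 3 of the macrophage and dendritic cell genes. The highest of these counts came without LASI replicate 6, and the enterocyte count was 0 without LASI replicate 2, 4 or 5 or LASN replicate 5 or 6. CDH17 lost its call in 6 of 21 alternatives, FLT3 in 5 and LCK in 1, each with the span slope among them (adjusted p = 0.444, 0.288 and 0.143). CD28 lost its call without LASI replicate 2, 4 or 5 (adjusted p of at most 0.0535), and PRDM1 kept its call in 21 of 21.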

How the data were processed

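The authors deposited 1 table of TPM values, 1 column per library, for 15618 genes of which 12132 have a symbol. The unit was read from the values, and the build galGal6 is given per the submitters' processing notes. The aligner, counting tool and annotation are not given in the sources used here, and whether counting used strand is not given either. Depth cannot be had from TPM, and columns were mapped to birds by name.

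A gene entered the tests if 6 or more libraries reached 0.5 TPM, which kept 13279. Values were used as log2(TPM + 1), which understates the change of low genes such as BLEC2. Fold changes are on that scale. One limma model (version 3.58.1, R 4.3.3) held the 24 libraries and 4 group means, with trended and robust empirical Bayes and 20 residual degrees of freedom. Two-sided p-values had Benjamini-Hochberg adjustment across the tested genes, and calls were made below 0.05. The test was checked on simulated data, in which genes varied independently of each other. That check does not cover shifts shared by many genes of a library, such as the span slope. Ratios were tested by exact permutation of 6 against 6 birds, where the smallest possible p is 0.00216. Correlations used 100000 permutations within groups, with 1e-05 as the smallest p these can give.

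The genes and the 10 gene lists were chosen with earlier results of these data known. Named genes were the members, models overlapping BG8, the 2 nearest models beside BG8 and BLEC2, the family lists, up to 2 called genes of each other list and the 3 genes most like each member. Alternative names came from the RefSeq table of assembly GRCg7b, none of whose coordinates were used. The other settings tried were a pseudocount of 0.1 TPM, no filter, a filter at 1 TPM, median-ratio rescaling, a fit of only the 2 groups at hand, a replicate block, a covariate (the span slope, or the level of 50 genes of chromosome W), each library left out, and LASI replicates 4 and 6 left out together. The result of 1 list after injection of the LAS line is not reported here.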

Additional observations from a re-analysis of the deposited data

Results flagged for a closer look

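In groups of 6, a bird was listed where its gap to the nearest other bird exceeded 0.625 of the range of the group. Of 92 groups checked, 14 had such a bird, and chance gives about 1 in 20.

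LASI replicate 6 stood above the other injected LAS birds for both unnamed models and for the short model past BG8. ENSGALG00000049448 was at 78.2 TPM there against 22.0 to 42.7 in the others, ENSGALG00000050131 at 55.5 TPM against 12.96 to 28.3, and ENSGALG00000039480 at 137 TPM against 63.0 to 88.2. The same bird had the highest span slope of its group, -0.06. ENSGALG00000050131 was at 38.9 TPM in LASN replicate 3 against 58.5 to 68.9 in the others. BLEC2 was at 5.29 TPM in LASI replicate 4 against 1.53 to 2.52.

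HASI replicate 5 was low in ENSGALG00000013101, at 230.2 TPM against 273 to 297, and in BG1, at 340.1 TPM against 417 to 454. BTN1A1 was low at 6.40 TPM in HASN replicate 3 and at 5.61 TPM in LASN replicate 3. PPP1R10 was at 68.1 TPM in LASI replicate 4 against 24.3 to 38.5. IL4I1 was at 0.396 TPM in HASI replicate 5 and 0.499 TPM in LASN replicate 6, and KLRD1 at 0.172 TPM in LASN replicate 6 and 0.226 TPM in LASI replicate 4, all below the filter.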

How the results depend on the processing

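Of 292 recomputed injection tests of the 4 genes, 284 gained, lost and turned no call, as did 55 of 58 ratio tests, while uncalled values near 0 could change sign, and 162 of 164 line values moved by less than the spread. With 0.1 TPM added, the line values of BLEC2 were -2.16 and -2.40. Rescaling turned BG8 in LASI vs LASN to 0.33. With the span slope as a covariate the changes there were -0.27 for ENSGALG00000049448 and -0.47 for ENSGALG00000050131, and without single libraries ENSGALG00000049448 ranged from -1.33 to -0.97. The replicate numbers did not pair the birds: 2 to 4 of 6 pairs per comparison had a correlation over 0.1, and 1 or 2 of 6 matched their own number best. With the replicate block the LAS ratios were -1.02 and -1.15, with an exact p of 0.03125, the smallest that 6 pairs allow, adjusted to 0.0625; the block changed no other call of the 4 genes. The HAS ratio of ENSGALG00000050131 ranged from -0.59 to -0.33, and passed without HASN replicate 2 (adjusted p = 0.0346). Genes called in HASN vs LASN numbered 156, 67 with only the groups compared and 282 with the slope. In HASI vs LASI they numbered 72, 288 with the slope, 40 without LASI replicates 4 and 6, and 45 to 68 without single libraries. In HASI vs HASN they numbered 265, 146 with rescaling, 57 with only the groups compared, 1496 with the slope and 108 to 310 without single libraries. In LASI vs LASN they numbered 4133, 774 with the slope and 1355 to 5977 without single libraries, of which LASI replicates 2, 4 and 5 and LASN replicates 5 and 6 gave the low counts. The interaction gave 1 without a filter and 0 to 3 without single libraries. Higher and lower calls were 289 and 3844 in LASI vs LASN and 1598 and 2553 with rescaling, 32 and 233 in HASI vs HASN and 68 and 78 with rescaling, and 44 and 112 in HASN vs LASN and 76 and 86 with rescaling. Of 1140 list counts 94 moved. Why the counts moved was not tested for any setting, the slope and the rescaling included. Counting error could not be given, since the depth is unknown.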
